A study of Mus musculus with 6 samples.

Results

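Respiratory complexes II to V carry out the later steps of oxidative phosphorylation in the inner mitochondrial membrane. The genes described here are rows of the deposited table, chosen by symbol and level. The symbol had to be Sdha, Sdhb, Sdhc or Sdhd, or to begin with Uqcr, Cox4 to Cox8 or Atp5. The level had to be at least 1 CPM in 3 or more of the 6 libraries. CPM counts a gene's reads in every 1000000 of the library. The genes chosen were 42 of the 20129 genes in the table: 4 of complex II, 8 of complex III, 13 of complex IV and 17 of complex V. The symbol pattern matched 46 rows, and the 4 that missed the level were Cox4i2, Cox6b2, Cox7a1 and Cox8b. The level was set over all libraries without regard to genotype, and each of the 42 had at least 1 CPM in every library.

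Complex II, succinate dehydrogenase, passes electrons from succinate to ubiquinone. Complex III passes them on to cytochrome c, complex IV (cytochrome c oxidase) to oxygen, and complex V, the ATP synthase, uses the proton gradient built on the way to make ATP. Apart from complex II, whose subunits are all encoded in the nucleus, these complexes join nuclear subunits to subunits encoded by mitochondrial DNA. Microglia, the resident macrophages of the brain, are known to move between oxidative phosphorylation and glycolysis as their state changes.

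RNA was sequenced from microglia, sorted as live CD45+ CD11b+ cells. The mice were 5 months old and, per the labels, of strain C57BL6/J. There were 3 libraries from Il3-/-5xFAD mice, which lack interleukin-3 (replicates 1, 2 and 3), and 3 from 5xFAD mice (replicates 4, 5 and 6). Both groups carry the 5xFAD transgenes, which are driven by the Thy1 promoter, active in neurons, and no group without them was included. Each library was a pool of 2 male and 2 female mice, so the spread between libraries is that between pools. The libraries held 28160523 to 32988688 reads in Il3-/-5xFAD and 27970850 to 37605490 reads in 5xFAD. Il3 had no read in Il3-/-5xFAD replicates 1, 2 and 3, which allows at most 0.107 CPM in any of them (counting error only), against 54, 61 and 29 reads in 5xFAD replicates 4, 5 and 6. The 10 microglial markers, among them P2ry12, Tmem119 and Cx3cr1, summed to 38109 to 41646 CPM in Il3-/-5xFAD and 36436 to 38564 CPM in 5xFAD.

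The promoters of 4 members are shown because Uqcrh, Uqcr10 and Cox6a1 are among the members with larger differences below and Sdha among those with the smallest. Each sequence gives the 250 bases before the gene's start in RefSeq (build GRCm38.p6, another build than that of the files), with capitals marking matches on either strand to the motif of the respiratory gene regulator NRF1 (GCGCA, any base, GCGC) or to CCGGAAG, the core of ETS factors such as GABPA.
Uqcrh (chr4:116075071-116075320, minus strand): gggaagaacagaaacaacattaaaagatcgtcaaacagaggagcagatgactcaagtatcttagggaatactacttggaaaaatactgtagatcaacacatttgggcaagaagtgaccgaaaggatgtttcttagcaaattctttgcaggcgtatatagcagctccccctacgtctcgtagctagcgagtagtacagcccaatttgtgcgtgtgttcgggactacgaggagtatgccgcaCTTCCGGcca
Uqcr10 (chr11:4704345-4704594, minus strand): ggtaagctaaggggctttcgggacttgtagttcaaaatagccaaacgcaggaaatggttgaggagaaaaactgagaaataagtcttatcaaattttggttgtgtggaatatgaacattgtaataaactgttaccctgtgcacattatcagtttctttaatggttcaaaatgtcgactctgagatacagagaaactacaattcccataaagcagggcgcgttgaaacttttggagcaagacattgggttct
Cox6a1 (chr5:115348959-115349208, minus strand): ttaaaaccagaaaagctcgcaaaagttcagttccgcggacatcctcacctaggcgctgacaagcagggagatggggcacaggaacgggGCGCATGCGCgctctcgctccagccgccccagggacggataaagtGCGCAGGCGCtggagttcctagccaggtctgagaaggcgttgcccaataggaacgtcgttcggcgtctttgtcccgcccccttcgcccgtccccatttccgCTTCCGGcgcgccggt
Sdha (chr13:74350241-74350490, minus strand): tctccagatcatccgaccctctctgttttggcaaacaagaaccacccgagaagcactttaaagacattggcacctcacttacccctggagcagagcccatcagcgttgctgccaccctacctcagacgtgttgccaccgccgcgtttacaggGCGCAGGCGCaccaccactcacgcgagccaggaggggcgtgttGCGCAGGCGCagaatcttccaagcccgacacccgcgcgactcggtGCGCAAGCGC
In these windows Cox6a1 held 2 positions of the NRF1 motif and 1 of the ETS core, Uqcrh held 1 of the ETS core, Sdha held 3 of the NRF1 motif, and Uqcr10 held neither. The same window of Cox7a2l, the member of smallest p below, also held neither and is not shown.

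No member passed the threshold of an adjusted p under 0.05 (limma on log2(CPM + 1), Benjamini-Hochberg adjustment over all 11900 tested genes), while 41 of the 42 had a lower mean log2 level in Il3-/-5xFAD than in 5xFAD. Their median log2 difference, Il3-/-5xFAD minus 5xFAD, was -0.27, beside a median of -0.00 over all tested genes, of which 50.1% were negative. The smallest adjusted p was 0.0547, for Cox7a2l. Over all tested genes limma called 105 (0.882%), with 75 of them (0.63% of all tested genes) lower, so 0 calls among 42 genes is near the background. At an unadjusted p under 0.05 there were 20 members, all lower, against 16.5% of all tested genes in either direction and 9.83% lower. Of other tools, edgeR's quasi-likelihood test called 0 members with TMM factors (0.504% of all tested genes, 0.294% lower) and 0 with library totals (0.58%, 0.353% lower). At an unadjusted p under 0.05 these gave 19 members (16.3% of all tested genes) and 21 members (16.2%). DESeq2 called 7 members (5.08% of all tested genes, 3.45% lower), with 19 at an unadjusted p under 0.05 (16.8% of all tested genes). The DESeq2 calls, all lower in Il3-/-5xFAD, were Cox4i1, Cox6a1, Cox6a2, Cox6c, Cox7a2l, Uqcr10 and Uqcrh.

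In 20 of the 42 members every Il3-/-5xFAD library lay below every 5xFAD library, against 11.5% of all tested genes. These were 11 of 13 members in complex IV, 5 of 17 in complex V, 3 of 8 in complex III and 1 of 4 in complex II. In no member did every Il3-/-5xFAD library lie above every 5xFAD library. A lower level in a pool of sorted cells cannot tell fewer cells of a type from less RNA per cell.

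**Figure D1:**
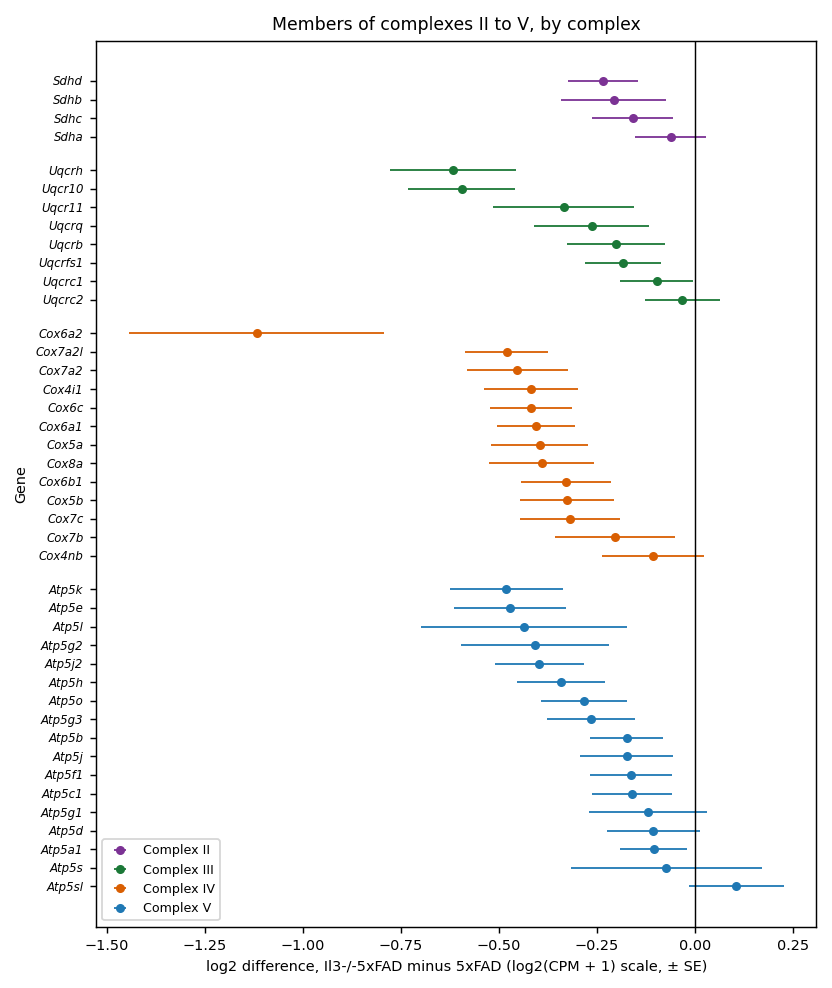
Log2 difference of each of the 42 members between Il3-/-5xFAD and 5xFAD (horizontal axis, limma on log2(CPM + 1), bars ± SE) with genes grouped by complex (vertical axis). All but Atp5sl lie left of 0, the complex IV genes around -0.40, and none passed the threshold.

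Single libraries moved these counts. Without Il3-/-5xFAD replicate 3, limma called 10 members (605 genes in all, 5.08%, and 3.12% lower): Uqcrh, Uqcr10, Cox4i1, Cox6a1, Cox7a2l, Atp5e, Atp5g3, Atp5h, Atp5j2 and Atp5k, all lower in Il3-/-5xFAD. Without that library 32 members had an unadjusted p under 0.05, against 22.8% of all tested genes, and 34 members had no overlap between the groups, against 21.0% of all tested genes. Without 5xFAD replicate 4 only Cox6a2 was called (227 genes in all, 1.91%, and 1.51% lower), and without each of the other 4 libraries no member was. The count over all tested genes was 139 without Il3-/-5xFAD replicate 1 and 59 without Il3-/-5xFAD replicate 2, against 105 with all libraries. It was 38 without 5xFAD replicate 5 and 15 without 5xFAD replicate 6. Limma with array weights, which gave Il3-/-5xFAD replicate 3 the lowest weight of 0.412, called 12 members (952 genes in all, 8.0%, and 5.08% lower).

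Complex IV had the largest median difference of the 4 complexes. Summed over its 13 members, complex IV stood at 603, 720 and 791 CPM in Il3-/-5xFAD replicates 1, 2 and 3, against 876, 925 and 968 CPM in 5xFAD replicates 4, 5 and 6. The groups did not overlap, and the means were 705 ± 94.9 and 923 ± 45.9 CPM (SD, n = 3 each). The median log2 difference of its members was -0.40. The 13 include Cox7a2l and Cox4nb, which are no structural subunits of complex IV. In the sums these had means of 107 and 35.3 CPM in Il3-/-5xFAD and 149 and 38.5 CPM in 5xFAD. Without Cox7a2l and Cox4nb the median was also -0.40. Cox4i1, the ubiquitous form of the subunit through which ATP inhibits the enzyme, was at 160, 194 and 238 CPM in Il3-/-5xFAD, against 253, 261 and 268 CPM in 5xFAD. Every Il3-/-5xFAD library was below every 5xFAD library, with replicate 3 the nearest (log2 difference -0.42 ± 0.12, SE; limma adjusted p = 0.105). The difference of Cox4i1 was -0.28 without replicate 1 and -0.56 without replicate 3 (limma adjusted p of 0.242 and 0.0228). Cox6a1, the widely expressed form of subunit VIa, was at 51.4, 56.9 and 63.1 CPM in Il3-/-5xFAD, against 73.9, 79.8 and 73.7 CPM in 5xFAD. Here too the groups were apart (-0.41 ± 0.10, limma adjusted p = 0.0728).

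Cox7a2l encodes an assembly factor that joins complex III to complex IV in supercomplexes rather than a subunit of complex IV itself, and C57BL/6 mice are known to carry a shortened form of the protein. It was at 91.5, 113 and 117 CPM in Il3-/-5xFAD, against 140, 144 and 164 CPM in 5xFAD. The groups were separate, and its log2 difference of -0.48 ± 0.11 (SE) had the smallest p among the members (limma adjusted p = 0.0547, and 0.0448 with robust estimation, under which it was the 1 member called; that setting called 0.966% of all tested genes, and 0.697% lower). Its relative Cox7a2, a subunit proper, was at 23.2, 28.8 and 22.2 CPM in Il3-/-5xFAD, against 32.3, 36.4 and 33.4 CPM in 5xFAD (-0.45 ± 0.13, limma adjusted p = 0.102). For Cox7a2 the lowest of the 6 libraries was Il3-/-5xFAD replicate 3. Cox6c, a small nuclear subunit, was at 39.9, 48.5 and 43.3 CPM in Il3-/-5xFAD, against 54.7, 59.9 and 62.0 CPM in 5xFAD (-0.42 ± 0.10, limma adjusted p = 0.0790).

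Cox6a2, known as the heart and skeletal muscle form of subunit VIa, had the largest log2 difference of all members. It was at 2.01, 4.51 and 4.70 CPM in Il3-/-5xFAD, against 5.11, 10.8 and 12.4 CPM in 5xFAD. The groups did not overlap, but 5xFAD replicate 4 lay next to the Il3-/-5xFAD libraries (-1.12 ± 0.33, SE; limma adjusted p = 0.110). Without 5xFAD replicate 4 the difference was -1.46 (limma adjusted p = 0.0355), and without 5xFAD replicate 6 it was -0.90 (limma adjusted p = 0.431). On the log2(CPM + 1) scale the difference of so low a gene is understated, and edgeR with TMM factors gave -1.33.

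The other forms known from particular tissues were at or near the lower limit of detection. Cox4i2 had 3 reads in Il3-/-5xFAD replicate 1 and none in the other 5 libraries, Cox7a1 had 3 reads or fewer in every library, Cox8b had 0, 3 and 0 reads in Il3-/-5xFAD and 1, 10 and 21 reads in 5xFAD, and Cox6b2, a testis form, had 10, 21 and 0 reads in Il3-/-5xFAD and 15, 35 and 27 reads in 5xFAD. Cox8a was at 62.3 ± 10.5 CPM in Il3-/-5xFAD and 81.6 ± 10.4 CPM in 5xFAD (SD, n = 3 each), and Cox6b1 at 62.6 ± 9.44 and 78.3 ± 4.34 CPM in the same order (limma adjusted p of 0.166 and 0.174). Cox5a, Cox5b and Cox7c, small nuclear subunits, also had no overlap between the groups, with log2 differences of -0.40, -0.33 and -0.32. Cox7b overlapped between the groups, at 28.7, 28.4 and 43.5 CPM in Il3-/-5xFAD and 36.8, 37.2 and 40.2 CPM in 5xFAD (limma adjusted p = 0.552). Cox4nb, which matches the symbol rule but is listed in RefSeq as Emc8, a gene of the endoplasmic reticulum membrane protein complex that neighbours Cox4i1, was at 35.3 ± 0.499 CPM in Il3-/-5xFAD and 38.5 ± 6.66 CPM in 5xFAD (-0.11 ± 0.13, limma adjusted p = 0.734).

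**Figure D2:**
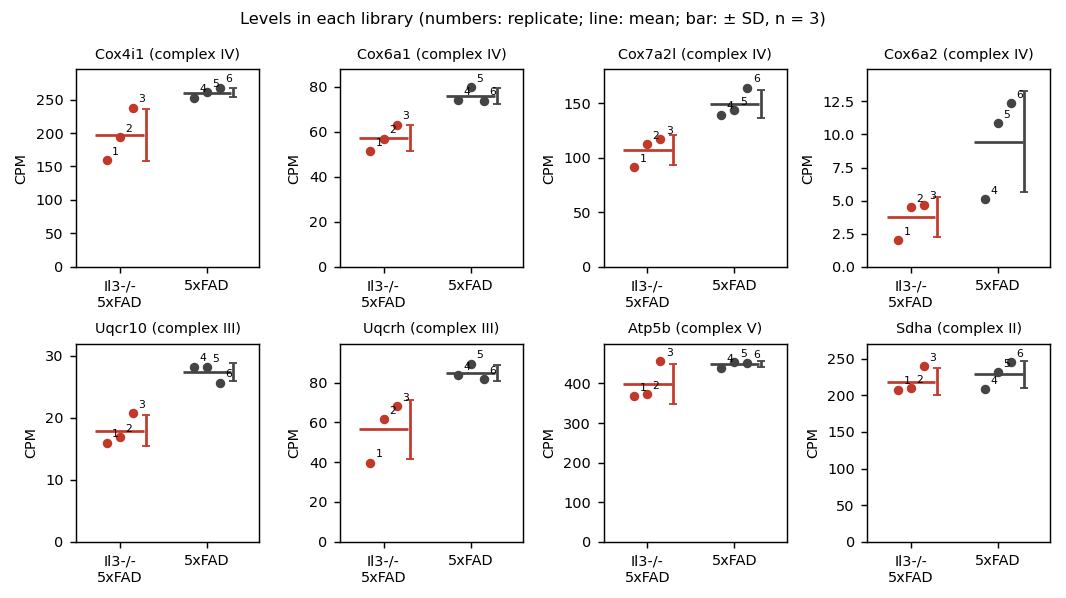
Level in CPM (vertical axes, from 0) of 8 members in each library, Il3-/-5xFAD at the left and 5xFAD at the right of each panel; numbers are replicates, lines means and bars ± SD (n = 3). The groups are apart for the 4 complex IV genes and for Uqcr10 and Uqcrh, and overlap for Atp5b and Sdha.

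In complex III the members differed widely among themselves. Its 8 members summed to 376, 403 and 465 CPM in Il3-/-5xFAD, against 481, 478 and 491 CPM in 5xFAD, and their median log2 difference was -0.23, or -0.12 without Il3-/-5xFAD replicate 1. Uqcrh, the hinge protein that holds cytochrome c1, was at 39.7, 61.6 and 68.1 CPM in Il3-/-5xFAD, against 83.7, 89.4 and 81.8 CPM in 5xFAD. Uqcr10, a small subunit of the complex, was at 16.0, 16.9 and 20.7 CPM in Il3-/-5xFAD, against 28.2, 28.2 and 25.7 CPM in 5xFAD. In both genes all Il3-/-5xFAD libraries were below all 5xFAD libraries, and the log2 differences were -0.62 ± 0.16 and -0.59 ± 0.14 (SE; limma adjusted p of 0.0831 and 0.0624). Without Il3-/-5xFAD replicate 1 the difference of Uqcrh was -0.39 (limma adjusted p = 0.0976). The core proteins Uqcrc1 and Uqcrc2 differed far less. Uqcrc1 was at 105, 103 and 125 CPM in Il3-/-5xFAD and 124, 113 and 117 CPM in 5xFAD (-0.10 ± 0.09, limma adjusted p = 0.654), and Uqcrc2 at 109, 102 and 119 CPM in Il3-/-5xFAD and 108, 105 and 126 CPM in 5xFAD (-0.03 ± 0.10, limma adjusted p = 0.905). Uqcrfs1, which encodes the Rieske iron-sulfur protein, was at 39.8 ± 2.01 CPM in Il3-/-5xFAD and 45.3 ± 1.6 CPM in 5xFAD, without overlap (-0.18 ± 0.10, limma adjusted p = 0.383). The small subunits Uqcrq, Uqcr11 and Uqcrb overlapped between the groups, at log2 differences of -0.26, -0.33 and -0.20. Without Il3-/-5xFAD replicate 1 these were -0.12, -0.13 and -0.11.

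Of the members, Uqcrq, Uqcr10, Atp5g1 and Atp5h lie on chromosome 11, which also carries the targeted gene. Uqcrq is the nearest to Il3, with 10 tested genes between them in RefSeq's order, while 197 lie between Uqcr10 and Il3. Uqcrq was at 26.0, 30.6 and 40.6 CPM in Il3-/-5xFAD and 36.5, 39.3 and 39.7 CPM in 5xFAD, with Il3-/-5xFAD replicate 3 above all other libraries (limma adjusted p = 0.408).

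In complex V the log2 differences ranged from -0.48 to 0.11, beside -0.62 to -0.03 in complex III. The 17 members of complex V had sums of 1266, 1350 and 1591 CPM in replicates 1, 2 and 3 of Il3-/-5xFAD. In 5xFAD replicates 4, 5 and 6 these were 1571, 1594 and 1615 CPM. Replicate 3 of Il3-/-5xFAD lay among the 5xFAD libraries and the other Il3-/-5xFAD libraries below them. The median log2 difference was -0.17, and without Il3-/-5xFAD replicate 3 it was -0.31. Without Atp5s and Atp5sl, which are no structural subunits, the median was -0.26. The beta and alpha subunits of the catalytic head had the most reads of all members. Atp5b, the beta subunit, was at 368, 373 and 457 CPM in Il3-/-5xFAD and 440, 454 and 451 CPM in 5xFAD (-0.17 ± 0.09, SE, limma adjusted p = 0.378). Atp5a1, the alpha subunit, was at 363 ± 33.6 CPM in Il3-/-5xFAD and 389 ± 12 CPM in 5xFAD (SD, n = 3 each, limma adjusted p = 0.582). Atp5c1 and Atp5d, the gamma and delta subunits of the catalytic head, differed by -0.16 and -0.11, with overlap.

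Several other subunits of complex V, with transcripts under 1000 bases, differed more in the values not corrected for transcript length. Not all did so, as Atp5j, of 809 bases, differed by -0.17, with overlap. Atp5e, the epsilon subunit, was at 40.2, 55.0 and 65.1 CPM in Il3-/-5xFAD, against 73.4, 72.9 and 73.0 CPM in 5xFAD. The 5xFAD libraries were almost equal, and all Il3-/-5xFAD libraries were below them (-0.47 ± 0.14, limma adjusted p = 0.124). Atp5k, the e subunit at the dimer interface, was at 14.7, 18.1 and 20.3 CPM in Il3-/-5xFAD, against 23.5, 25.9 and 25.4 CPM in 5xFAD (-0.48 ± 0.14, limma adjusted p = 0.119). Atp5j2, the f subunit of the membrane sector, was at 47.3, 60.0 and 63.1 CPM in Il3-/-5xFAD, against 70.3, 77.8 and 75.8 CPM in 5xFAD (-0.40 ± 0.11, limma adjusted p = 0.105). Atp5h, a stalk subunit, and Atp5o, the subunit that ties the stalk to the catalytic head, were also without overlap, at -0.34 and -0.28. Members at lower levels, Atp5l and Atp5s, had the largest SE of the complex, 0.26 and 0.24.

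Atp5g1, Atp5g2 and Atp5g3 are known to encode the same mature c subunit, the rotor ring of the synthase, with different import sequences. Per 1000 bases of transcript, Atp5g3 was at 78.3 CPM in Il3-/-5xFAD and 93.7 in 5xFAD, Atp5g2 at 15.7 and 21.2, and Atp5g1 at 3.04 and 3.34, so that Atp5g3 was the highest of them in both groups. The length used was 4715 bases for Atp5g1, against 753 for Atp5g2 and 723 for Atp5g3. The low value of Atp5g1 on this scale rests on that length, which need not be that of the form these cells use. Not divided by length, Atp5g3 was at 56.6 ± 8.70 CPM in Il3-/-5xFAD and 67.8 ± 3.35 CPM in 5xFAD (SD, n = 3 each). Atp5g1 was at 14.3 ± 0.33 CPM in Il3-/-5xFAD and 15.7 ± 2.06 CPM in 5xFAD, and Atp5g2 at 11.8 ± 2.14 and 16.0 ± 3.13 CPM in the same order. All 3 overlapped between the groups, and their limma adjusted p were 0.266 (Atp5g3), 0.743 (Atp5g1) and 0.305 (Atp5g2). The only member higher in Il3-/-5xFAD was Atp5sl (0.11 ± 0.12, limma adjusted p = 0.712), which RefSeq lists as Dmac2, an assembly factor of complex I. Atp5s, listed there as Dmac2l, had a log2 difference of -0.07 ± 0.24. Without Atp5s, Atp5sl, Cox7a2l and Cox4nb, which are no structural subunits, all 38 remaining members were negative, with a median of -0.30.

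Complex II showed small differences, and its summed level overlapped between the groups, at 367, 368 and 433 CPM in Il3-/-5xFAD and 406, 422 and 443 CPM in 5xFAD. Sdha, the catalytic flavoprotein, was at 208, 210 and 240 CPM in Il3-/-5xFAD and 208, 232 and 246 CPM in 5xFAD, fully overlapping (-0.06 ± 0.09, SE; limma adjusted p = 0.785). Sdhd, a membrane anchor, was at 56.9, 54.3 and 60.4 CPM in Il3-/-5xFAD, against 66.9, 64.9 and 70.4 CPM in 5xFAD, the 1 member of the complex without overlap (-0.23 ± 0.09, limma adjusted p = 0.216). The iron-sulfur subunit Sdhb and the other anchor Sdhc had differences of -0.21 ± 0.13 and -0.16 ± 0.10 (limma adjusted p of 0.472 and 0.479). The median of the 4 was -0.18, and it was -0.12 without Il3-/-5xFAD replicate 1 or 2. Per 1000 bases of transcript, Sdha was at 75.5 CPM, Sdhd at 46.5, Sdhb at 45.8 and Sdhc at 19.2 in Il3-/-5xFAD, and at 78.8, 54.8, 52.3 and 21.5 CPM in 5xFAD, the same order in both. On that scale Cox4i1 was the highest member, at 258 CPM per 1000 bases in Il3-/-5xFAD and 341 in 5xFAD, followed by Atp5b at 208 and 234. Lengths are those of the longest protein-coding GENCODE transcript, which need not be the form these cells use.

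The 3 Il3-/-5xFAD libraries differed among themselves more than the 5xFAD libraries did. The members together had sums of 2612, 2841 and 3281 CPM in replicates 1, 2 and 3 of Il3-/-5xFAD, and of 3334, 3419 and 3518 CPM in 5xFAD replicates 4, 5 and 6, with means of 2911 ± 340.0 and 3424 ± 92.0 CPM (SD, n = 3 each). Replicate 1 gave the lowest value of all 6 libraries in 29 members, and replicate 3 the highest of the Il3-/-5xFAD values in 33. Without replicate 1 the log2 difference shrank by over 1.5 times in 17 members, Cox4i1, Cox8a, Cox6b1, Uqcrh and Atp5e among them, and without replicate 3 it grew by over 1.5 times in 13, Atp5b and Sdhb among them. Replicate 1 lay below every 5xFAD library in 37 members, replicate 2 in 35 and replicate 3 in 23. In complex IV these counts were 12, 12 and 11 of 13, while in complex V they were 14, 13 and 7 of 17.

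**Figure D3:**
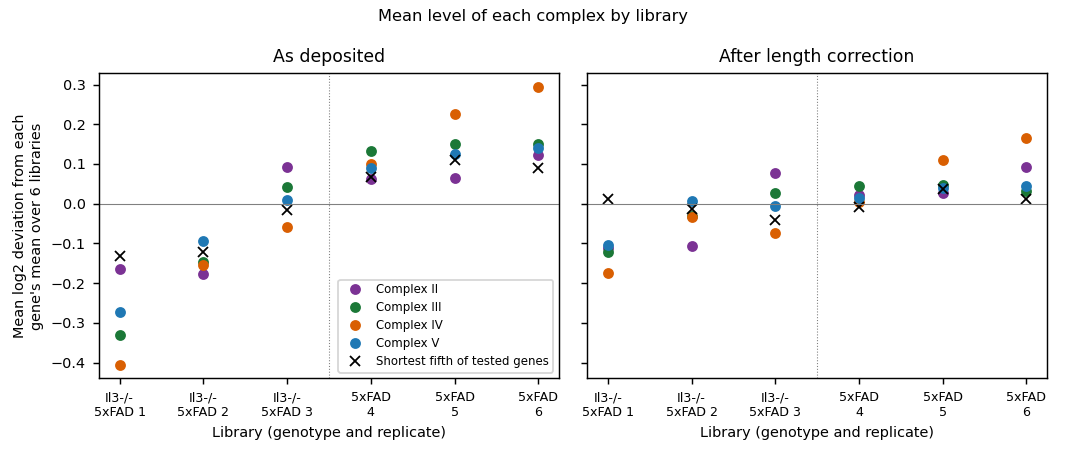
Mean log2 deviation of each complex from its genes' means over 6 libraries (vertical axis), by library (horizontal axis, Il3-/-5xFAD replicates 1 to 3 and then 5xFAD replicates 4 to 6), as deposited (left) and after the length correction (right); crosses mark the shortest 20% of tested genes. Complex IV spans -0.41 in Il3-/-5xFAD replicate 1 to 0.29 in 5xFAD replicate 6 as deposited, and -0.17 to 0.17 after the correction.

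The differences moved with transcript length. The members are short, with a median of 837 bases against 3092 over all tested genes, and 34 of the 42 belong to the shortest 20% of tested genes. That class of 2351 genes, of up to 1774 bases, had a median log2 difference of -0.14, with 73.7% negative and 23.5% without overlap below 5xFAD. Longer members had differences nearer to 0, with Spearman's rho of 0.79 between length and log2 difference over 42 genes, which share the same 6 libraries and are not independent replicates. Over the 11753 tested genes with a length, rho was 0.31. The 23 members under 1000 bases had a median of -0.40 and 17 of them no overlap, while the 19 longer members had a median of -0.16 and 3 of them no overlap. The division at 1000 bases was chosen after the values had been seen. Within complex IV rho was 0.20 (13 genes), within complex V 0.83 (17 genes) and within complex III 0.76 (8 genes).

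Libraries themselves leaned by length. The log2 deviation of a gene changed per doubling of transcript length by 0.09, 0.05 and -0.01 in Il3-/-5xFAD replicates 1, 2 and 3, and by -0.05, -0.04 and -0.04 in 5xFAD replicates 4, 5 and 6. When each library's trend with length was removed, the members' median became -0.10, with 34 of 42 negative and 4 at an unadjusted p under 0.05 (9.52% of members, against 14.4% of the 11753 genes tested there). The medians of complexes II, III, IV and V became -0.08, -0.04, -0.12 and -0.09 after the correction. All 13 members of complex IV stayed negative, from -0.85 (Cox6a2) to -0.02 (Cox7b). Cox7a2l was at -0.33 (limma adjusted p = 0.130), Uqcrh at -0.31 and Uqcr10 at -0.24 (0.259 and 0.402), while Uqcrb, Uqcr11, Uqcrc2, Atp5o, Atp5j, Atp5d, Atp5s and Atp5sl were above 0. A difference shared by many short genes is taken out by this correction whatever its source, and the part of length or RNA quality in the result was not tested.

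**Figure D4:**
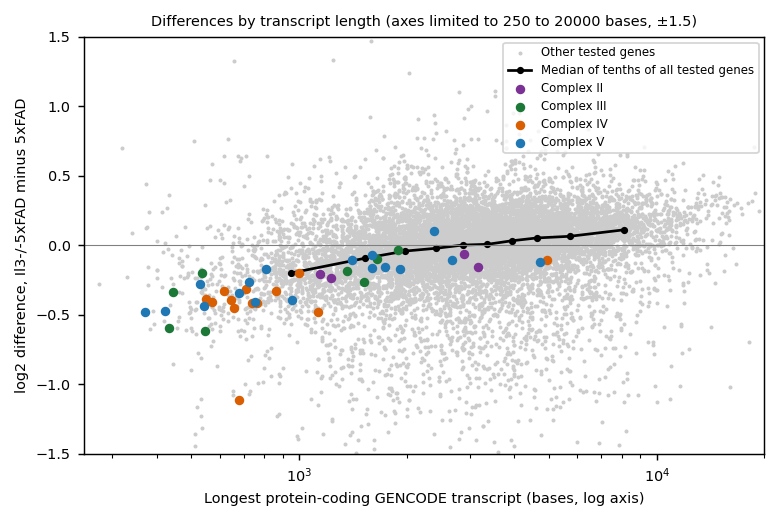
Log2 difference, Il3-/-5xFAD minus 5xFAD (vertical axis), against the length of the longest protein-coding transcript (horizontal log axis, bases) for all tested genes (grey) and the members (coloured by complex); the black line joins medians of 10 equal classes of tested genes. The members under 1000 bases lie around -0.40, and Cox6a2 lies lowest at -1.12.

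Other genes of the pathway were counted from lists of known components. Of 5 further subunits and regulators of these complexes none passed and all 5 were negative, with a median of -0.34 (0.882% of all tested genes passed). They were Ndufa4, a subunit now placed in complex IV, at 31.7 ± 1.45 CPM in Il3-/-5xFAD and 40.4 ± 3.96 CPM in 5xFAD (-0.34 ± 0.11, limma adjusted p = 0.151), the complex V subunits 2010107E04Rik, listed in RefSeq as Atp5mpl (-0.53 ± 0.18, limma adjusted p = 0.157), and Usmg5, listed as Atp5md (-0.44 ± 0.19), the inhibitor of the synthase Atpif1 (-0.30 ± 0.11) and cytochrome c1, Cyc1 (-0.14 ± 0.10). Assembly factors differed less. Of 14 tested for complex IV none passed and 11 were negative, with a median of -0.07. Cox17, the copper chaperone, was at 28 ± 5.1 CPM in Il3-/-5xFAD and 35.3 ± 2.71 CPM in 5xFAD (-0.33 ± 0.14, limma adjusted p = 0.256). Lrpprc, which keeps mitochondrial transcripts stable, was at 89.6 ± 2.84 CPM in Il3-/-5xFAD and 82.1 ± 2.5 CPM in 5xFAD, with every Il3-/-5xFAD library higher (0.13 ± 0.08, limma adjusted p = 0.470). The 3 tested factors of complex II, Sdhaf1, Sdhaf2 and Acn9, the 3 of complex III and the 3 of complex V had medians of 0.05, 0.06 and 0.02, and none passed. Among them Bcs1l, which inserts the Rieske protein, differed by -0.20 ± 0.15 (limma adjusted p = 0.552), Ttc19 of complex III by 0.13 ± 0.18 (0.763), and Atpaf1 and Atpaf2, chaperones of the catalytic head of complex V, by -0.31 ± 0.18 and 0.15 ± 0.16 (0.409 and 0.690).

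Around the complexes, 13 enzymes of the citric acid cycle had a median of -0.06 with 11 negative, 7 carriers and exchange proteins a median of -0.07 with 6 negative, and 12 tested regulators of respiratory genes a median of 0.09 with 3 negative. None of these genes passed. Citrate synthase, Cs, was at 99.9 ± 3.85 CPM in Il3-/-5xFAD and 109 ± 7.96 CPM in 5xFAD (limma adjusted p = 0.515), malate dehydrogenase Mdh2 at 76.9 ± 5.15 and 83.7 ± 4.96 CPM in the same order (0.543). The nucleotide exchanger Slc25a4 differed by -0.21 ± 0.11 (limma adjusted p = 0.356) and cytochrome c, Cycs, by -0.19 ± 0.17 (0.614). The mitochondrial RNA polymerase gene Polrmt differed by 0.18 ± 0.11 (limma adjusted p = 0.435) and the DNA polymerase gene Polg by 0.11 ± 0.09 (0.604). Subunits encoded by mitochondrial DNA were not analysed here.

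For comparison, 35 complex I subunits had a median of -0.26, with 33 negative, 12 without overlap below 5xFAD and none called, of which Ndufb8 (-0.45 ± 0.12, limma adjusted p = 0.0904) and Ndufb2 (-0.63 ± 0.19, limma adjusted p = 0.115) had the smallest p. The 78 tested genes of cytosolic ribosomal proteins had a median of -0.42, with 1 called higher and 3 lower (0.882% of all tested genes were called). Those of mitochondrial ribosomal proteins, 72 in number, had a median of -0.10. Without overlap below 5xFAD were 70 of the 78 and 13 of the 72, beside 11.5% of all tested genes. After the length correction 50 of the 78 had an unadjusted limma p under 0.05. After the length correction the medians were -0.06, -0.24 and -0.00 for complex I, cytosolic and mitochondrial ribosomal proteins, beside -0.10 for complexes II to V. The differences between these lists were not tested.

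**Figure D5:**
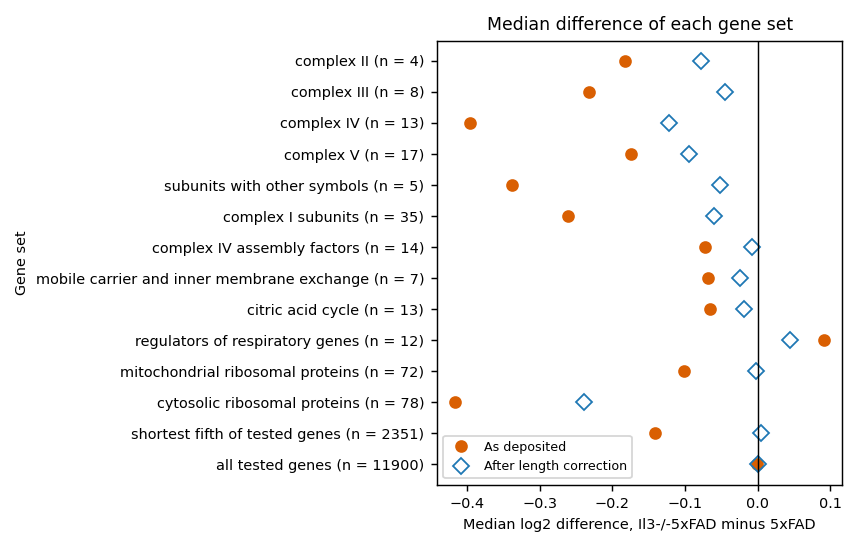
Median log2 difference, Il3-/-5xFAD minus 5xFAD (horizontal axis), of each gene set (vertical axis, n tested genes) as deposited (filled circles) and after the length correction (open diamonds). Complex IV moves from -0.40 to -0.12 and the shortest 20% of tested genes from -0.14 to 0.00.

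Markers of other cells also differed between the groups. Summed over 10 neutrophil markers the libraries of Il3-/-5xFAD replicates 1, 2 and 3 held 775, 213 and 832 CPM, against 1224, 3269 and 2258 CPM in 5xFAD replicates 4, 5 and 6, and 5 of the 10 fell (limma adjusted p under 0.05). Both the neutrophil sum and the member sum were lower in every Il3-/-5xFAD library than in every 5xFAD library. The lowest neutrophil sum was in Il3-/-5xFAD replicate 2 and the lowest member sum in replicate 1. Monocyte markers summed to 77.0 to 158 CPM in Il3-/-5xFAD and 157 to 262 CPM in 5xFAD (2 of 6 tested fell), lymphocyte markers to 55.0 to 69.2 and 93.8 to 182 CPM (3 of 7 tested fell) and choroid plexus markers to 63.1 to 130 and 182 to 515 CPM (2 of 4 tested fell). Of 6 border macrophage markers, which summed to 98.0 to 129 CPM in Il3-/-5xFAD and 123 to 158 CPM in 5xFAD, none passed. Mural and endothelial markers summed to 58.7 to 66.9 and 55.3 to 74.9 CPM, of which 1 of 6 tested rose, astrocyte markers to 130 to 150 and 141 to 170 CPM, oligodendrocyte markers to 161 to 177 and 193 to 209 CPM, and neuronal markers to 2.73 to 3.85 and 2.67 to 5.65 CPM, with none called in the last 3. The astrocyte sum is mostly Slc1a3, at 126 ± 7.58 CPM in Il3-/-5xFAD and 124 ± 11.2 CPM in 5xFAD (SD, n = 3 each). Gfap, another astrocyte marker, was at 3.73, 9.13 and 11.4 CPM in Il3-/-5xFAD, against 14.6, 22.6 and 32.0 CPM in 5xFAD, without overlap (-1.45 ± 0.34, limma adjusted p = 0.0660). Slc1a2 and the oligodendrocyte marker Mobp were also without overlap, at -1.01 ± 0.28 and -0.88 ± 0.29 (limma adjusted p of 0.0939 and 0.153). Of the 6 astrocyte markers Aqp4 and Gja1 had no read in 1 library, of the 6 oligodendrocyte markers Mog had none in 2, and of the 7 neuronal markers Syt1, Tubb3, Stmn2, Slc17a7 and Gad1 had none in at least 1. The part of these cells in the differences of the members was not tested.

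Some members share sequence with other genes, often processed pseudogenes, so that their reads may be split. Of the 42 members, 13 shared 10% or more of the 50-base stretches of their longest protein-coding transcript with transcripts of other genes: 89.8% in Atp5o, most with Donson, 68.5% in Atp5l, 47.9% in Atp5h and 43.2% in Uqcrb, and less than 30% in the other 9. The levels of these 13 genes are uncertain to that extent. Among the 29 members under 10%, 28 were negative and 13 had no overlap (11.5% of all tested genes lay without overlap below 5xFAD), with a median of -0.21. Of the members, 19 shared no such stretch, Cox4i1, Uqcr10 and Cox7a2 among them.

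RefSeq windows of 300 bases (250 before to 50 after the start) were at hand for 33 members. The NRF1 motif was found in 30.3% of them, against 12.1% of 9379 tested genes with a window, and the ETS core in 36.4% against 20.9%. The estrogen-related receptor motif TCAAGGTCA was in 6.06% (Sdhd and Atp5g3) against 0.299%, the YY1 motif AAGATGG in 15.2% against 8.69%, the NF-Y box CCAAT in 54.5% against 43.0% and the SP1 box GGGCGG in 36.4% against 68.6%. Each motif was searched on both strands, and none of these 6 contains another. The 10 members with an NRF1 match had a median log2 difference of -0.27 and the 23 without one -0.33, with ranges from -0.48 to -0.06 and from -0.62 to 0.11. With an ETS match the median was -0.37 (12 members) and without one -0.20 (21 members). Transcripts of members with an ETS match were of 371 (Atp5k) to 1231 bases (Sdhd), and those without of 434 (Uqcr10) to 4715 bases (Atp5g1). The differences moved with transcript length, and these medians were not corrected for it. Of the members whose promoters are shown, Sdha had 3 matches to the NRF1 motif (log2 difference -0.06) and Cox6a1 had 2 (-0.41). Uqcrh and Uqcr10 had none (-0.62 and -0.59). These members were picked by their differences, so no link between matches and differences can be read from them. A match is a run of letters and no measure of binding.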

How the data were processed

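The deposited values were CPM (counts per 1000000), made by the authors, in 1 table of 20129 genes by 6 libraries. Per the submitters' processing notes, STAR, HTSeq, edgeR and the build mm9 were used, with no version or role given. The labels' protocols name a polyA directional kit. The annotation and the counting mode are not given here by any source. Every value was a whole multiple of 1 read (100% within 0.01 reads), so reads were recovered, with 1 read worth 0.0266 to 0.0358 CPM.

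The members, gene lists, tests and alternatives were chosen with earlier results of these data known. The 11900 genes (59.1%) that reached 1 CPM in 3 or more libraries were tested with limma 3.58.1 (R 4.3.3; eBayes with trend, two-sided, log2(CPM + 1)), which understates differences of low genes. No gene list was given a p. Alternatives used edgeR 4.0.16 and DESeq2 1.42.0 on recovered reads, other pseudocounts, filters and scalings, single libraries left out, and a lowess correction (span 0.3) for transcript length. On simulated reads for 11772 genes with 200 changed, limma recovered 70% of 2-fold and 96% of 4-fold changes, and 13 of 179 calls were false. Changes as small as those of most members, and a length trend between libraries, were not simulated. Lengths came from GENCODE M21 (GRCm38; 11753 tested genes) and symbols from RefSeq (18772 of 20129 matched).

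Named were members past the threshold, in each complex the 4 of smallest p and the 2 most abundant, all isoform sets, and in other lists called genes or the 2 of smallest p. Members named beyond these and the 7 DESeq2 calls were chosen after their values were seen. Figures were drawn with matplotlib.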

Additional observations from a re-analysis of the deposited data

How the results depend on the processing

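No paired analysis was possible because the groups share no replicate number. Of the 42 members 34 were negative with the length correction and 39 or more in every other alternative that tested all of them or left out low genes. Of the medians, those of all members, complex III and complex IV moved by more than the spread between libraries with the length correction, to -0.095, -0.044 and -0.12 (from -0.27, -0.23 and -0.40), and that of complex V without 1 library, over a range of -0.31 to -0.12. The number of members called was 0 in the main test and 12 with array weights, 7 with DESeq2, 1 with robust estimation and 0 to 10 without 1 library; the causes were not tested. Members without overlap were 20 to 34 without 1 library, against 14.4% to 21% of all tested genes. With all libraries they were 20, against 11.5%. Counting overlap without 1 library was an alternative added after the data had been seen. Over all tested genes 105 were called, and 8 with no filter, 68 with a mean of at least 5 CPM, 65 with median-ratio rescaling, 10 without the variance trend, 952 with array weights, 51 with the length correction, 60 and 69 with edgeR (TMM and library totals), 605 with DESeq2, and 15 to 605 without 1 library. The sign turned in 7 single members. With the length correction the log2 differences were 0.11 for Uqcrb, 0.053 for Atp5j, 0.031 for Atp5o, 0.017 for Uqcrc2, 0.013 for Uqcr11, 0.0095 for Atp5s and 0.0042 for Atp5d. Without 1 library Uqcrc2 ranged from -0.091 to 0.047, above 0 without Il3-/-5xFAD replicate 2 and without 5xFAD replicate 6. Atp5s ranged from -0.25 to 0.13, above 0 without Il3-/-5xFAD replicate 3, and was at 0.056 with quantile normalization and 0.079 with array weights. With 3 pools a group, an SE of about 0.12 in the median member limits what could pass.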
